A study of Saccharomyces cerevisiae with 6 samples.

Results

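The sulfur amino acid genes of *S. cerevisiae* are 31 genes for sulfate uptake, for its reduction to sulfide, for the synthesis of homocysteine, methionine, *S*-adenosylmethionine and cysteine, for the uptake of organic sulfur compounds, and for the transcription factors of the pathway. They were taken from a list of gene names and matched to the counts by systematic name. All 31 names were found among the 8898 features counted, of which 6713 were open reading frames (ORFs), and all 31 passed the filter on low counts. The libraries came from *rrp4Δ::NEO* cells of the strain BY4742 (labelled MATα *ura3Δ0 leu2Δ0 his3Δ1*), which carried either *RRP4-2xMyc* or *rrp4-G226D-2xMyc* on the centromeric *LEU2* plasmid pRS315 as the only copy of *RRP4*. Both groups thus shared the chromosomal deletion, the tag and the plasmid, and differed in the G226D substitution of Rrp4, a cap subunit of the RNA exosome, the nuclease complex that processes and degrades RNA. Each group had 3 independent cultures grown in minimal medium without leucine and kept at 37°C for 5 h. The methionine content of the medium is not given in the sources used here.

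Yeast takes up sulfate, activates it with ATP, and reduces it through sulfite to sulfide. Sulfide is joined to a carbon chain made from aspartate to give homocysteine, from which methionine is made by methylation and cysteine by transsulfuration. Methionine is activated to *S*-adenosylmethionine, the methyl donor of the cell. Transcription of many of these genes depends on the activator Met4, which does not bind DNA by itself and is brought to promoters by Cbf1, which binds CACGTG, and by Met31 and Met32, which bind elements with the core TGTGGC. When sulfur compounds are plentiful, Met4 is restrained by the ubiquitin ligase that contains Met30.

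The promoters of the members carried these motifs more often than those of other coding genes, a property that their choice did not use directly. On either strand, CACGTG was found from 250 bases before to 50 bases after the start codon in 9 of 31 members (29.0%), and in 174 of all 5994 nuclear coding genes (2.9%). TGTGGC was found in the same window in 9 members (29.0%) and in 469 of all genes (7.8%). Over the 500 bases before the start codon, a window added after seeing the data, CACGTG was found in 21 members (67.7%) against 6.2% of all genes, and TGTGGC in 20 members (64.5%) against 14.2%. A match is a description of the sequence and not a measured binding site. By their letters the motifs can share 2 bases, and they did not in the stretches given here. The stretches below, read 5′ to 3′ on the strand of the gene from the R64 assembly, are from members with both motifs, and were chosen after their values were seen, to show genes that were lower, higher or did not pass the test between the genotypes. Capitals mark CACGTG and TGTGGC, the latter shown as GCCACA where it lies on the other strand.
SAM2, chrIV:1454743-1454799, minus strand: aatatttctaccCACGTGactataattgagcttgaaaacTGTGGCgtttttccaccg
CYS3, chrI:130571-130618, plus strand: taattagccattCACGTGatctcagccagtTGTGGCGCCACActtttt
MET22, chrXV:207294-207323, minus strand: gacgagcaatatCACGTGttgcgattttac
MET22, chrXV:207251-207280, minus strand: agaagaaaccatGCCACAtataaagaacgt
MET5, chrX:683543-683601, minus strand: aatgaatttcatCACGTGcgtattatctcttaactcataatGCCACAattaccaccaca
MET10, chrVI:213069-213124, plus strand: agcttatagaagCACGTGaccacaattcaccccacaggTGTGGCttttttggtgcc
MET16, chrXVI:877772-877822, minus strand: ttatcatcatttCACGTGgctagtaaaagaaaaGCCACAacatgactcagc
SUL2, chrXII:323198-323237, plus strand: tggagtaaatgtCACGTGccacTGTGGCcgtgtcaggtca
HOM3, chrV:258245-258286, minus strand: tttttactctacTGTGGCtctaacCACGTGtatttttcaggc

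Of these, *SAM2* and *MET22* were decreased, *CYS3* was lower, *MET5* and *MET10* were higher, and *MET16*, *SUL2* and *HOM3* did not pass the test, as described below. The 14 members with both motifs in the 500 bases had 2 genes decreased and a median log2 fold change of 0.17, from -1.20 to 0.45. The 7 members with CACGTG alone (*MET1*, *MET8*, *HOM6*, *MET17*, *MET6*, *CYS4* and *CBF1*) had 3 decreased and a median of -0.52. The 6 members with TGTGGC alone (*MET13*, *STR3*, *MUP1*, *MMP1*, *SAM3* and *JLP1*) had 1 decreased and a median of -0.16. The 4 members with neither (*SUL1*, *HOM2*, *SAM1* and *STR2*) had 1 decreased and a median of -0.12. Decreased members were thus present in every motif class, beside 13.0% of all ORFs tested. *MET6*, *HOM6* and *CYS4*, the 3 decreased with CACGTG alone, are among the most abundant members, and more of the abundant ORFs were decreased, as given further on.

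Total counts were 7663545 to 12181979 per library. The 10 most counted features took 25.0% to 28.7% of the counts in *RRP4* libraries and 15.2% to 16.6% in *rrp4-G226D* libraries, and ORFs took 69.7% to 73.7% and 82.3% to 84.1%. The scaling between libraries therefore sets where no change lies: with TMM scaling the median log2 fold change of the 7631 features tested was 0.01, and with library size alone it was 0.46. Values below are TMM-scaled CPM (each count relative to the scaled total of its library), called normalized counts. The TMM factors were 0.821 to 0.878 for *RRP4* libraries and 1.15 to 1.20 for *rrp4-G226D* libraries. Normalized counts thus hold relative to the features that set the scaling, and neither per amount of RNA sequenced nor per cell. Fewer cells and less RNA per cell cannot be told apart. The *RRP4* transcript, counted from the plasmid, had 178, 167 and 165 normalized counts in *RRP4* libraries and 299, 281 and 302 in *rrp4-G226D* libraries. The counts do not separate the alleles, so they do not check the label of a library. *URA3* had 0 counts in every library, and *ura3Δ0* is labelled, whereas *LYS2*, for which the labelled genotype lists no deletion, had 0 counts in 5 libraries and 1 in the other. The study's strain table differs from the labels here: it lists *lys2Δ0* for this *rrp4Δ* strain, and MATa as its mating type. *HIS3*, labelled *his3Δ1*, an allele that lacks part of the gene, had 71.1 to 92.3 normalized counts in *RRP4* libraries and 62.2 to 63.2 in *rrp4-G226D* libraries. *LEU2*, carried by the plasmid, had 2107, 2135 and 2161 against 1490, 1387 and 1348, a log2 fold change of -0.60. The α markers *MF(ALPHA)1* (1062 to 1483) and *STE3* (147 to 157 against 109.6 to 123) were present in every library. *SAG1* had 39.8 to 43.4 against 68.1 to 73.4, a log2 fold change of 0.75, and *MF(ALPHA)2* had 4.30 to 5.83. All 6 **a** markers were counted at low levels, from 0.506 for *MFA2* to 13.2 for *STE2*. *MET17*, the member that is deleted in some laboratory strains, had 487 to 731 raw counts in every library, so these cells carry it.

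A gene is called decreased or increased below when edgeR's quasi-likelihood test gave a Benjamini-Hochberg adjusted p under 0.05 and the change was at least 1.5-fold, and lower or higher when it met the p alone. Of the 31 members, 7 were decreased (22.6%), 0 were increased and 24 were not called. Over all features tested, 11.3% were decreased and 12.7% increased, and over the 5982 ORFs tested 13.0% were decreased and 5.38% increased. By adjusted p alone, 10 members were lower (32.3%) and 5 higher (16.1%), against 37.5% and 23.1% of ORFs. The members' median log2 fold change was -0.05, with 17 below 0 and 14 above, beside a median of 0.01 over all features and -0.07 over ORFs. The groups did not overlap and were lower in *rrp4-G226D* libraries for 13 members (41.9%, against 39.7% of ORFs), and higher for 7 (22.6%, against 25.4%). The list as a whole therefore sat close to the ORFs in its median and in its shares without overlap, below them in its shares by adjusted p alone, and its share of decreased genes was 22.6% against 13.0%. With library size alone as the scaling, 11 members were increased and 1, *SAM2*, was decreased. The members' median was then 0.40, beside 0.46 over all features. The share of all features called with that scaling is not given here, so these counts do not set the members apart.

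**Figure D1:**
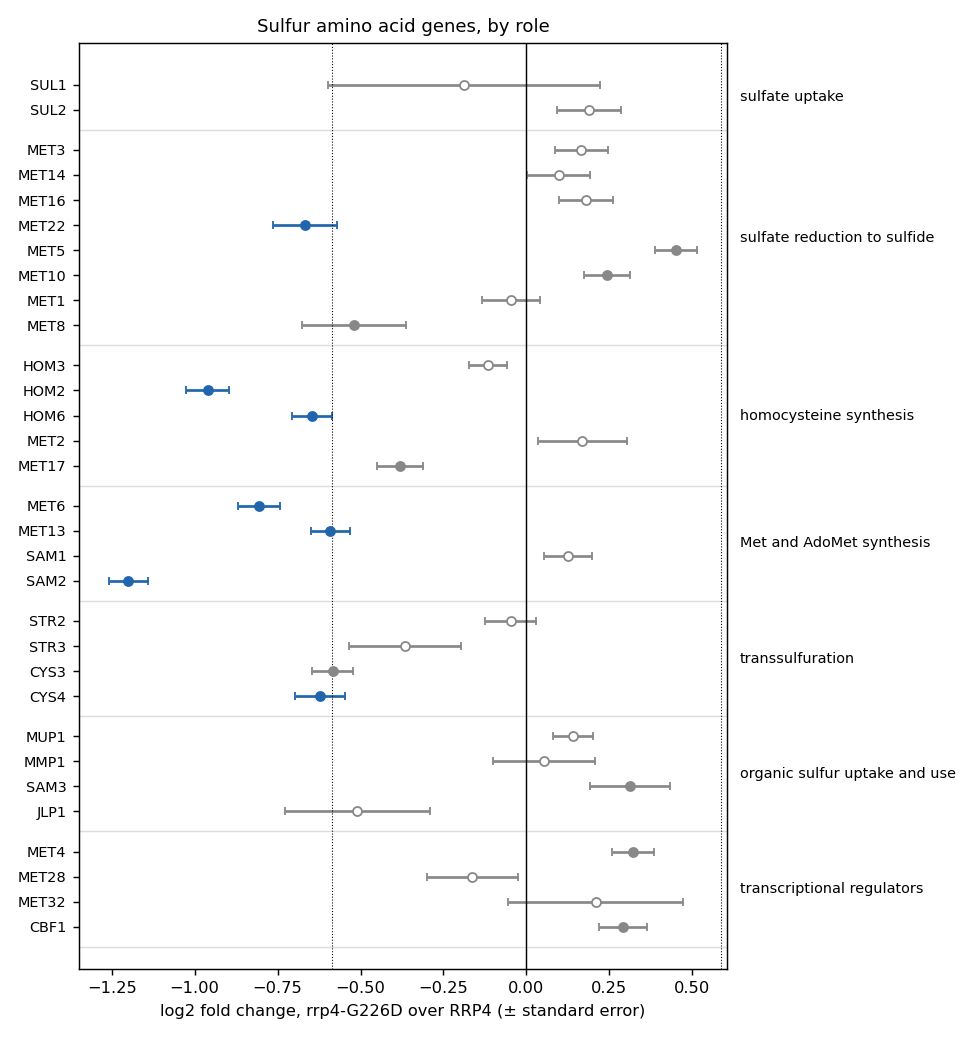
Log2 fold change (x axis, *rrp4-G226D* over *RRP4*) of the 31 members (y axis), grouped by role, with bars for the standard error, blue for the 7 decreased genes, filled points for an adjusted p under 0.05 and open points for the rest; dotted lines mark 1.5-fold. With TMM scaling, the decreased genes lie at -0.59 or below, in 4 of the 7 roles, and the highest member is *MET5* at 0.45.

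Of the 7 roles, the enzymes that make methionine and *S*-adenosylmethionine had the lowest median log2 fold change, -0.70, and 3 of the 4 were decreased. All 4 are among the 8 most abundant members. At such levels 40.5% of ORFs were decreased, with a median of -0.46, as given further on. *SAM2* (YDR502C, chrIV:1453310-1454464) encodes 1 of the 2 *S*-adenosylmethionine synthetases, which join methionine to ATP. Its normalized counts were 189.7, 185 and 201 in *RRP4* libraries and 83.9, 80.2 and 86.1 in *rrp4-G226D* libraries. The groups were far apart, with every *rrp4-G226D* library below the lowest *RRP4* library. The log2 fold change was -1.20 (SE 0.0596, edgeR adjusted p = 4.27e-11), a decrease of 2.30-fold.

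The other synthetase gene, *SAM1* (YLR180W, chrXII:515262-516410), did not pass the test. Its normalized counts were 409, 371 and 363 in *RRP4* libraries and 424, 369 and 454 in *rrp4-G226D* libraries, and the groups overlapped. The log2 fold change was 0.13 (SE 0.0735, edgeR adjusted p = 0.152), with a 95% interval from -0.02 to 0.27. It passed, under 1.5-fold, with TMM over ORFs (0.20, edgeR adjusted p = 0.025) and without *rrp4-G226D* replicate 2 (0.19, edgeR adjusted p = 0.0117). With library size alone it also passed, just short of 1.5-fold (0.57, edgeR adjusted p = 7.13e-08). The coding sequences are 82.8% identical (956 bases identical, of 1149 in *SAM1* and 1155 in *SAM2*), and every 100-base window of each occurs once in the genome. How reads that fit both genes were counted is not given in the sources used here.

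Within each library, the count of *SAM1* per coding length over that of *SAM2* is a measure that no scaling between libraries moves. This ratio, added after seeing the data, was 2.17, 2.02 and 1.81 in *RRP4* libraries and 5.07, 4.62 and 5.30 in *rrp4-G226D* libraries. Every *rrp4-G226D* library was above every *RRP4* library. The means were 2.00 ± 0.177 (SD, n = 3) and 5.00 ± 0.345 (SD, n = 3), a 2.50-fold difference, and the exact two-sided permutation test gave p = 0.1, the smallest that 3 libraries against 3 allow. In the fit, the log2 fold changes of the pair differed by 1.33 (SE 0.0946). *SAM1* was thus the more abundant synthetase transcript per length in both genotypes, and its excess over *SAM2* was larger in *rrp4-G226D* cells.

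**Figure D2:**
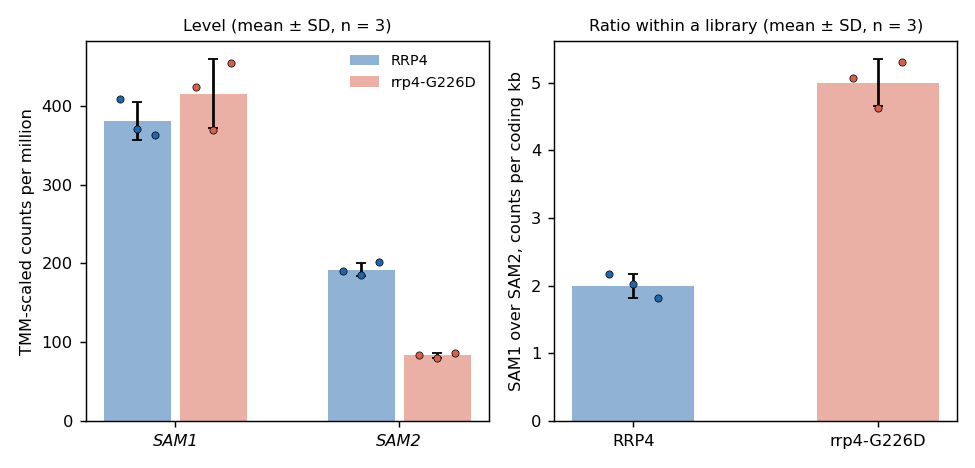
Left, normalized counts (y axis, TMM-scaled CPM) of *SAM1* and *SAM2* in each of 3 *RRP4* (blue) and 3 *rrp4-G226D* (red) libraries; right, the count of *SAM1* over that of *SAM2* per kb of coding length within each library. Bars are means and error bars SDs (n = 3), and the ratio has a mean of 2.00 in *RRP4* and of 5.00 in *rrp4-G226D* libraries.

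*MET6* (YER091C, chrV:339864-342167) encodes the cobalamin-independent methionine synthase, which methylates homocysteine. It had 1416, 1448 and 1407 normalized counts in *RRP4* libraries and 860.0, 792 and 791 in *rrp4-G226D* libraries. The *RRP4* values lay within a narrow range well above all 3 others, and the log2 fold change was -0.81 (SE 0.0632, edgeR adjusted p = 7.89e-09). *MET13* (YGL125W, chrVII:272520-274322) encodes the methylenetetrahydrofolate reductase that makes the methyl donor for Met6. It had 286, 281 and 273 normalized counts against 183, 197 and 178, with no overlap. Its log2 fold change of -0.59 (SE 0.0587, edgeR adjusted p = 1.34e-07) was just past 1.5-fold, and without *RRP4* replicate 1 (-0.58) or without *rrp4-G226D* replicate 3 (-0.57) it was no longer called decreased.

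Homocysteine synthesis had 2 of 5 genes decreased and a median log2 fold change of -0.38. Both decreased genes belong to the branch that turns aspartate into homoserine, which also feeds threonine. Both are also among the 8 most abundant members, and at such levels 40.5% of ORFs were decreased, as given further on. *HOM2* (YDR158W, chrIV:770357-771454) encodes the aspartic semialdehyde dehydrogenase and had 217, 218 and 219.6 normalized counts in *RRP4* libraries. In *rrp4-G226D* libraries it had 124, 104 and 108. The groups did not overlap, and the log2 fold change was -0.96 (SE 0.0658, edgeR adjusted p = 1.77e-09). *HOM6* (YJR139C, chrX:689445-690524) encodes homoserine dehydrogenase and had 242, 249 and 257 against 169, 152 and 157. It was also lower in every *rrp4-G226D* library, with a log2 fold change of -0.65 (SE 0.0594, edgeR adjusted p = 5.12e-08). With TMM over ORFs *HOM6* was at -0.57 and no longer called decreased. With library size alone neither *HOM2* (-0.51) nor *HOM6* (-0.20) was called. *HOM3*, for the aspartate kinase that opens the branch, had a log2 fold change of -0.12 (edgeR adjusted p = 0.093), and *MET2*, for the acetyltransferase that activates homoserine, of 0.17 (edgeR adjusted p = 0.291). Neither passed the test.

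*MET17* (YLR303W, chrXII:732542-733876) encodes the sulfhydrylase that joins sulfide to acetylhomoserine, the step where the inorganic and carbon branches meet. It had 63.7, 67.1 and 72.4 normalized counts in *RRP4* libraries and 51.8, 51.9 and 52.1 in *rrp4-G226D* libraries. The groups did not overlap, and the log2 fold change was -0.38 (SE 0.070, edgeR adjusted p = 1.54e-04), under 1.5-fold, and 0.07 with library size alone. The start of *MET17* overlaps YLR302C (chrXII:732191-732553), an ORF on the other strand. YLR302C had 12, 11 and 7 raw counts in *RRP4* libraries and 34, 45 and 35 in *rrp4-G226D* libraries, few beside those of *MET17*. It was increased, with a log2 fold change of 1.32 (SE 0.305, edgeR adjusted p = 0.00117). Whether the counting used strand is not given in the sources used here, so reads from their shared bases may belong to either. Those bases run only from chrXII:732542 to 732553, a small part of the 1335 of *MET17*.

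The 8 genes that reduce sulfate to sulfide split, with 1 decreased, 1 more lower, 2 higher and 4 that did not pass, and a median log2 fold change of 0.13. *MET22* (YOL064C, chrXV:206103-207176) encodes the nucleotidase that removes adenosine bisphosphate, a by-product of sulfate reduction that also inhibits RNA-degrading exonucleases. It had 53.7, 54.6 and 45.5 normalized counts in *RRP4* libraries and 36.7, 29.0 and 31.6 in *rrp4-G226D* libraries, with no overlap. The log2 fold change was -0.67 (SE 0.0963, edgeR adjusted p = 1.17e-05). *MET8*, for the last steps of siroheme synthesis, had 8.79 to 11.7 normalized counts against 6.66 to 7.48. It was lower, with a log2 fold change of -0.52 (edgeR adjusted p = 0.00862), and past 1.5-fold at -0.62 without *RRP4* replicate 2.

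The subunits of sulfite reductase, the enzyme that uses siroheme to make sulfide, were both higher. *MET5*, for the beta subunit, had 86.1, 94.1 and 99.0 normalized counts in *RRP4* libraries and 124, 133 and 125 in *rrp4-G226D* libraries. These groups were apart, and the log2 fold change was 0.45 (SE 0.064, edgeR adjusted p = 9.92e-06). *MET10*, for the alpha subunit, had 69.7 to 82.2 against 85.4 to 89.5 and a log2 fold change of 0.24 (SE 0.0696, edgeR adjusted p = 0.00579). Neither reached 1.5-fold with TMM scaling, and with library size alone both were increased (0.90 and 0.69). Without *RRP4* replicate 2, *MET10* did not pass (edgeR adjusted p = 0.051). The 3 enzymes before them gave log2 fold changes of 0.16 for *MET3* (ATP sulfurylase), 0.10 for *MET14* (adenylylsulfate kinase) and 0.18 for *MET16* (phosphoadenylylsulfate reductase), and *MET1*, for the first step of siroheme synthesis, gave -0.05. None of these 4 passed the test, the lowest edgeR adjusted p being 0.0695 for *MET16*.

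The sulfate permeases did not pass the test. *SUL2* had 22.2 to 27.2 normalized counts in *RRP4* libraries and 27.6 to 28.2 in *rrp4-G226D* libraries, with a log2 fold change of 0.19 (edgeR adjusted p = 0.103). *SUL1*, a close relative whose coding sequence is 62.0% identical, had 5 to 13 raw counts per library, and a difference was not detectable at this depth (95% interval of the log2 fold change from -0.99 to 0.62).

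**Figure D3:**
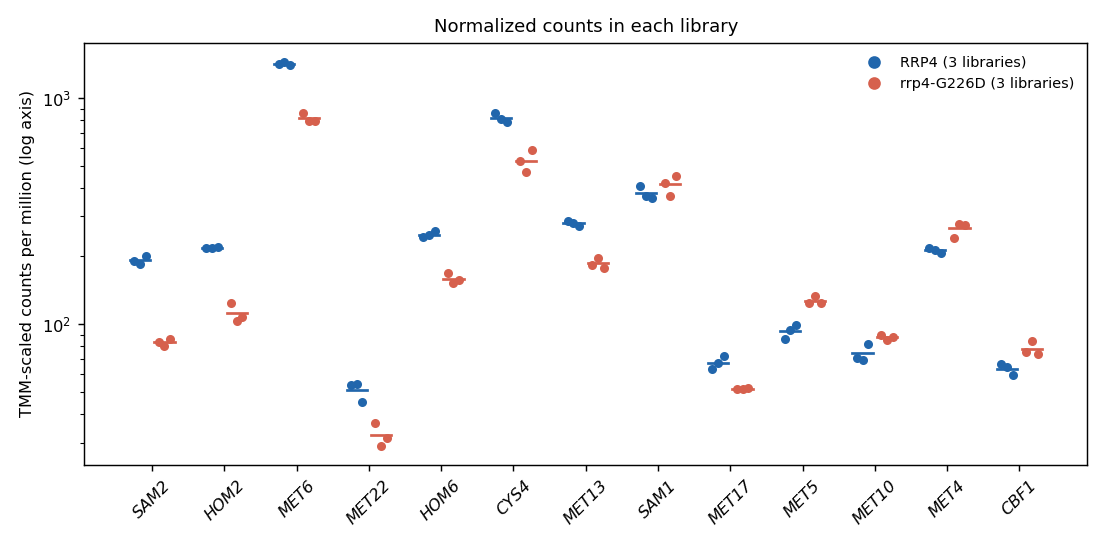
Normalized counts (y axis, TMM-scaled CPM, log axis) in each of 3 *RRP4* (blue) and 3 *rrp4-G226D* (red) libraries for the 7 decreased members and for *SAM1*, *MET17*, *MET5*, *MET10*, *MET4* and *CBF1* (x axis); lines are means. The groups overlap for *SAM1* alone among these 13 genes.

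Transsulfuration moves sulfur between homocysteine and cysteine through cystathionine, and all 4 of its genes had log2 fold changes below 0 with TMM scaling, with a median of -0.48. Of these, 1 was decreased, 1 more was lower and 2 did not pass. The decreased and the lower gene are among the 8 most abundant members, and at such levels 40.5% of ORFs were decreased. *CYS4* (YGR155W, chrVII:798543-800066), for cystathionine beta-synthase on the route to cysteine, had 861, 808 and 781 normalized counts in *RRP4* libraries and 528, 471 and 591 in *rrp4-G226D* libraries. The groups did not overlap, and the log2 fold change was -0.62 (SE 0.0753, edgeR adjusted p = 1.49e-06). It was -0.56, and no longer called decreased, without *rrp4-G226D* replicate 2, the lowest library. *CYS3* (YAL012W, chrI:130799-131983), for cystathionine gamma-lyase, the next step, had 267, 267 and 264 against 179.6, 164 and 189. Its log2 fold change of -0.58 (SE 0.0609, edgeR adjusted p = 2.52e-07) was just short of 1.5-fold, and past it in 4 of the 6 fits that left out 1 library (-0.64 at the lowest, without *rrp4-G226D* replicate 3). *STR2* and *STR3*, for the opposite route from cysteine to homocysteine, had log2 fold changes of -0.05 and -0.37 (edgeR adjusted p = 0.606 and 0.0702). With library size alone *STR2* and *STR3* turned to 0.40 and 0.08, and with TMM over ORFs *STR2* turned to 0.03.

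Among the 4 genes for organic sulfur, *SAM3*, the *S*-adenosylmethionine permease, was higher with overlapping groups. It had 20.7, 18.2 and 22.2 normalized counts in *RRP4* libraries and 27.4, 20.8 and 27.1 in *rrp4-G226D* libraries, and a log2 fold change of 0.31 (SE 0.120, edgeR adjusted p = 0.0329). It did not pass with DESeq2 (adjusted p = 0.0587), nor without *RRP4* replicate 1 (0.0545) or 2 (0.162), nor without *rrp4-G226D* replicate 1 (0.134) or 3 (0.123). *MUP1*, the high-affinity methionine permease, had 118 to 127 against 127 to 141 and a log2 fold change of 0.14 (edgeR adjusted p = 0.0541). *MMP1*, the *S*-methylmethionine permease, had 0.05, and *JLP1*, a dioxygenase that releases sulfite from sulfonates, had -0.51 (edgeR adjusted p = 0.786 and 0.0531). *JLP1* had 4.23 to 4.97 normalized counts against 2.61 to 3.52, and these groups did not overlap. Without *rrp4-G226D* replicate 1 its log2 fold change was -0.59, and it was called decreased.

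None of the 4 transcription factors was called with TMM scaling, and both *MET4* and *CBF1* were higher. *MET4*, the activator, had 218, 212 and 208 normalized counts in *RRP4* libraries and 242, 279 and 276 in *rrp4-G226D* libraries, with no overlap. The log2 fold change was 0.32 (SE 0.0634, edgeR adjusted p = 3.13e-04). *CBF1* had 66.5, 64.9 and 59.6 against 75.2, 84.8 and 74.2, also with no overlap. Its log2 fold change was 0.29 (SE 0.0725, edgeR adjusted p = 0.00224). *MET28*, the leucine zipper partner of Met4, had a log2 fold change of -0.16 (edgeR adjusted p = 0.318). *MET32* had 2.91, 6.40 and 2.68 against 4.91, 4.81 and 4.63, where *RRP4* replicate 2 was the highest of all 6 libraries. Its log2 fold change was 0.21 (SE 0.264, edgeR adjusted p = 0.514), and without *RRP4* replicate 2 it was 0.77 and called increased. No statement on the direction of *MET32* can rest on these libraries.

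The decreased members were among the more abundant transcripts of the pathway. Per kilobase of coding length, normalized counts in *RRP4* cells were highest for *MET6* (618), followed by *CYS4* (536), *SAM1* (332), *HOM6* (231), *CYS3* (225), *HOM2* (199), *SAM2* (166) and *MET13* (155), and were lowest for *SUL1* (0.391). Of these 8, a number chosen after seeing the values, 6 were decreased, *CYS3* was lower and *SAM1* did not pass, with a median log2 fold change of -0.64. Among the 996 ORFs at or above the level of *MET13*, 40.5% were decreased and the median was -0.46. Of the other 23 members, 1 (*MET22*) was decreased, 5 were higher, and 3 were lower by adjusted p (*MET22*, *MET8* and *MET17*), with a median of 0.10. Among the 4735 ORFs below that level, 7.60% were decreased and the median was -0.02. A higher level thus went with a lower log2 fold change over ORFs as it did over the members, and the part of level in the decreases was not tested. *SAM1*, the third of the members in level, was an exception in this group at 0.13.

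**Figure D4:**
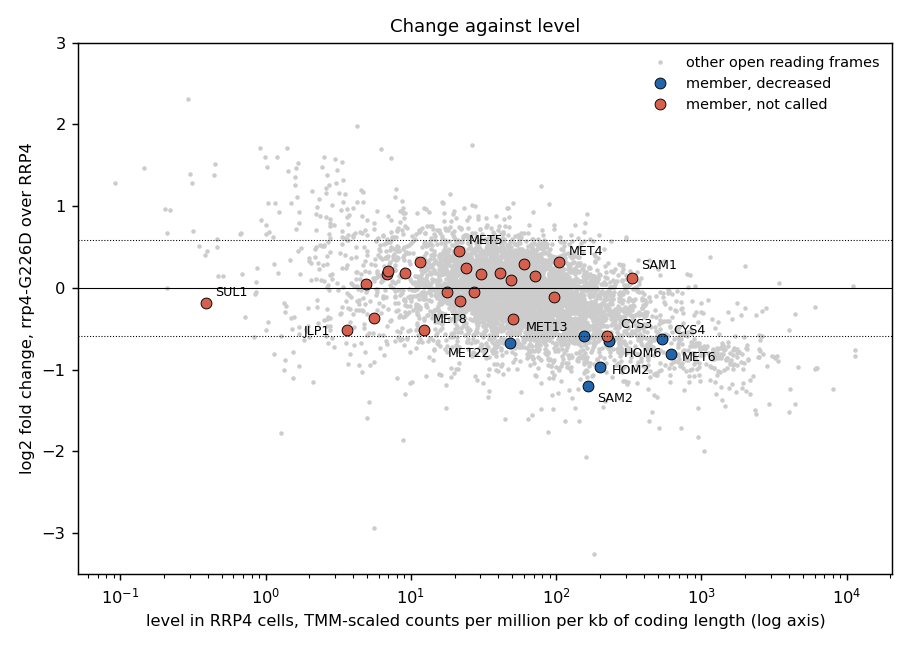
Log2 fold change (y axis, *rrp4-G226D* over *RRP4*, TMM scaling) against the level in *RRP4* cells (x axis, TMM-scaled CPM per kb of coding length, log axis) for the decreased members (blue), the members not called (red) and other ORFs (grey); dotted lines mark 1.5-fold. Of the 8 members with the highest levels, 6 are decreased and *SAM1* lies at 0.13, and the grey cloud bends downward at the same levels.

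The members together took 0.424% ± 0.0107 (SD, n = 3) of the counts of *RRP4* libraries and 0.432% ± 0.00534 (SD, n = 3) of those of *rrp4-G226D* libraries, and the groups overlapped. After TMM scaling their sums were 4960.2 ± 65.4 and 3704 ± 124 normalized counts (SD, n = 3 each), with every *rrp4-G226D* library lower. Whether the pathway's total differed between the genotypes therefore depends on the scaling. The balance within the pathway does not, and was read from each member's share of the counts of all 31, a measure added after seeing the data. Shares sum to the whole, so that a fall of the largest raises the others.

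The share of *MET6*, the largest, was 28.2%, 29.2% and 28.8% in *RRP4* libraries and 22.9%, 22.2% and 20.8% in *rrp4-G226D* libraries. The share of *SAM2* had a mean of 3.87% ± 0.215 against 2.25% ± 0.0166, and that of *HOM2* 4.40% ± 0.0837 against 3.03% ± 0.250 (SD, n = 3 each). In the other direction, the share of *SAM1* had a mean of 7.68% ± 0.402 against 11.2% ± 0.810, that of *MET4* 4.29% ± 0.0479 against 7.17% ± 0.701, and that of *MET5* 1.88% ± 0.155 against 3.44% ± 0.251 (SD, n = 3 each). In all, 7 members had a lower share in every *rrp4-G226D* library than in any *RRP4* library, 17 had a higher share, and 7 overlapped. The 7 lower ones were *SAM2*, *HOM2*, *MET6*, *HOM6*, *CYS4*, *MET13* and *CYS3*, while *MET22*, decreased in the fit, overlapped in its share. A higher share is not a higher level. *HOM3*, *MET1*, *STR2* and *MET28* were among the 17, with fitted log2 fold changes of -0.12, -0.05, -0.05 and -0.16. Shares are taken within the 31 members, so these counts have no counterpart over ORFs.

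**Figure D5:**
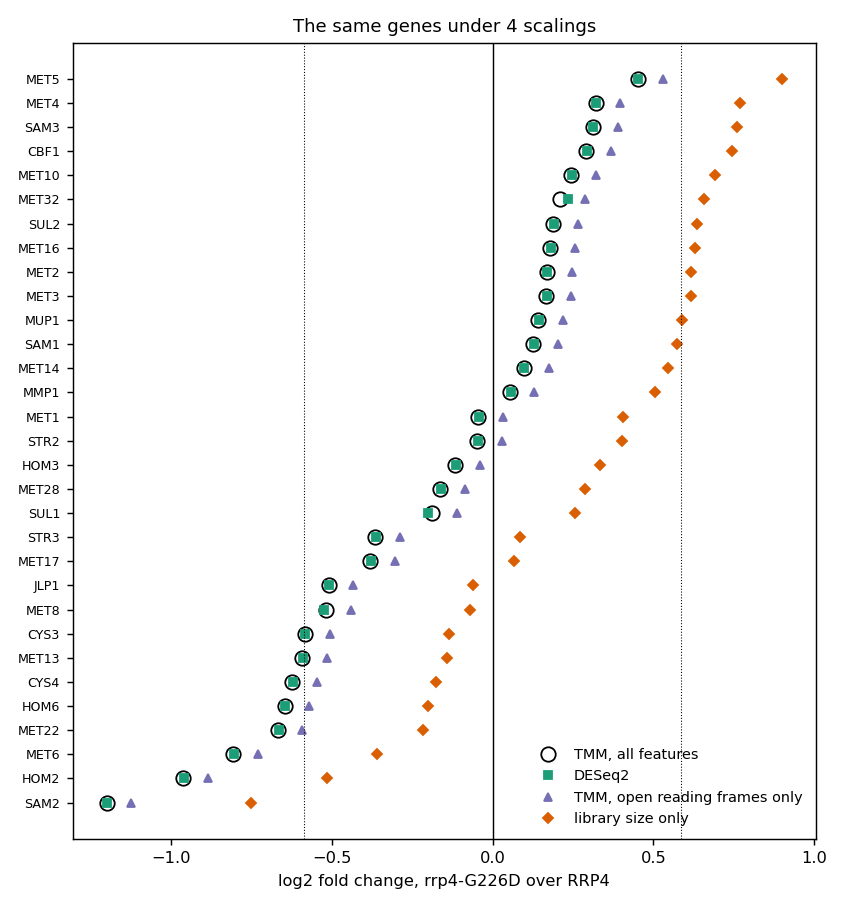
Log2 fold change (x axis, *rrp4-G226D* over *RRP4*) of the 31 members (y axis, in the order of the TMM values) with TMM over all features (open circles), DESeq2 (squares, nearly all inside the circles), TMM over ORFs (triangles) and library size alone (diamonds); dotted lines mark 1.5-fold. The order of the genes is nearly the same in each while the whole set moves to the right, to a median of 0.03 with TMM over ORFs and of 0.40 with library size alone.

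Beside the members, 37 other genes that neighbour the pathway were read from the same fit, and all passed the filter. Of these, 7 were decreased (18.9%, against 13.0% of ORFs) and 3 increased, where 5.38% of ORFs were increased. By adjusted p alone, 19 were lower (51.4%, against 37.5% of ORFs) and 8 higher (21.6%, against 23.1%), which includes those called, and 10 did not pass. The median log2 fold change was -0.24, beside -0.07 over ORFs. Of the decreased ones, *SAH1*, *SHM2*, *ADO1*, *SPE3*, *THR4* and *DUG1* lay above the level of *MET13* in *RRP4* cells, where 40.5% of ORFs were decreased. *SSU1* lay below that level, and the part of level in these decreases was not tested. The 10 genes of the methyl cycle and its folate supply included 3 of the decreased ones. *SAH1*, which splits the adenosylhomocysteine left by methyl transfer, had a log2 fold change of -1.08, *ADO1*, the adenosine kinase that clears the adenosine, had -0.79, and *SHM2*, which supplies the carbon unit that Met13 reduces, had -0.89. *MHT1*, which uses *S*-methylmethionine to methylate homocysteine, was increased at 0.72 from low counts (4.76 to 6.07 against 8.12 to 10.5 normalized counts). Use of *S*-adenosylmethionine for polyamines included *SPE3*, spermidine synthase, which was decreased at -1.03.

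*THR4*, the last step from homoserine to threonine, was decreased at -0.67, and *THR1*, the step before it, was lower at -0.56. *OPT1*, a plasma membrane importer of glutathione, was increased at 0.93, while *DUG1*, for a peptidase that acts in glutathione breakdown, was decreased at -1.01. *DUG2* and *DUG3*, whose products also act in glutathione breakdown, were higher at 0.22 and 0.30 (edgeR adjusted p = 0.00859 and 0.00103). The glutathione synthesis genes *GSH1* (0.11) and *GSH2* (0.02) did not pass the test. Of the transporters, *SSU1*, which exports sulfite, was decreased at -0.61 and *SEO1*, a putative permease, was increased at 0.61. *MET31*, whose product binds the same core as Met32, was lower at -0.31, and *MET30*, whose product restrains Met4, was higher at 0.20 with overlapping groups. *PDC6*, an isoenzyme poor in sulfur amino acids that is known to be induced on sulfur limitation, had -0.05 and did not pass the test.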

How the data were processed

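Stranded, rRNA-depleted total RNA libraries were sequenced in paired-end mode. The authors used STAR and the R64-1-1 assembly, with cryptic and stable unannotated transcripts added to the annotation, and deposited raw counts per feature from featureCounts (1.6.4); the strand setting and the treatment of multiply mapped reads are not given in the sources used here. The deposited DESeq2 (2.11.40.6) table also holds the mean normalized signal, fold changes and p-values; it was used to pair names with identifiers, and its fold changes and p-values were not used. Its mean signal was compared with the mean of counts divided by size factors from these 6 libraries, and was within 1% for 985 of 8700 features; it was used no further.

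Counts were analysed with edgeR 4.0.16 (R 4.3.3; TMM, filterByExpr by group, quasi-likelihood test, genotype as the only term) over 7631 features, with Benjamini-Hochberg adjustment over all of them. Standard errors are the log2 fold change divided by the square root of F, and 95% intervals are from these. Total counts of 7663545 to 12181979 set the precision, which is low for members with few counts. Groups and replicate numbers come from the labels. Alternatives were DESeq2 1.42.0, RLE factors, library size alone, TMM over open reading frames, no filter, a mean count of at least 50, a replicate block, other fold thresholds and leaving out each library. On simulated counts, edgeR recovered 195 of 200 features given a log2 change of size 1, with 4 false calls among 7632. Smaller changes were not simulated, so the recovery of genes near 1.5-fold, such as *MET13* and *CYS4*, was not tested. Library pairs of a genotype differed by more than sampling noise (chi-square per degree of freedom 2.33 to 9.59). Promoter sequences, coordinates and coding lengths come from the RefSeq annotation of R64. Permutation tests used scipy 1.17.1.

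Full values were given for members called, for *MET17*, *MET4*, *MET32* and *CBF1*, and for *SAM1* and *SAM2*; values in every library of *MET5*, *SAM3* and *CYS3* were added after they were seen. The members, roles and neighbouring genes were chosen with earlier results of these data known, and no p-value is given for the list.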

Additional observations from a re-analysis of the deposited data

How the results depend on the processing

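The choice of scaling moved the results most. With library size alone, the median of all features moved from 0.01 to 0.46 on the log2 scale, and the members' median turned to 0.40, with 11 members increased and 1 decreased. *SUL1* (0.26), *MET1* (0.40), *HOM3* (0.33), *MET17* (0.066), *STR2* (0.40), *STR3* (0.085) and *MET28* (0.29) reversed, and the neighbouring genes had 9 increased and 1 decreased. With TMM over open reading frames, where the median of all features was 0.09, the members' median turned to 0.029, with *MET1* (0.031) and *STR2* (0.029) reversed. In that fit 4 members were decreased, without *HOM6* (-0.57), *MET13* (-0.51) and *CYS4* (-0.55). With DESeq2, RLE factors or no filter on low counts, all 31 members kept their direction and their call at 1.5-fold; by adjusted p alone, *SAM3* was lost with DESeq2 (0.0587) and *MUP1* gained with RLE factors (0.049). *SUL2*, *MET3*, *MET16* and *MUP1* were also higher by adjusted p alone with TMM over open reading frames and under the stricter count filter, and *HOM3* and *STR3* lower and *MUP1* higher without *rrp4-G226D* replicate 2. A mean count of at least 50 left out 3 members with few counts, and neither *MET13* (-0.55) nor *CYS4* (-0.58) was called. With no fold threshold, 5 members were increased and 10 decreased, and of the neighbouring genes 8 and 19; with at least 2-fold, 1 member (*SAM2*) was decreased, and of the neighbouring genes 0 were increased and 3 decreased.

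Leaving out each library in turn gave 0 to 1 increased and 6 to 9 decreased members, a members' median of -0.09 to -0.05, and 2 to 4 increased and 7 to 8 decreased neighbouring genes. Members near 0 or with few counts changed sign: *STR2* (-0.10 to 0.00022), *SUL1* (-0.45 to 0.017) and *MMP1* (-0.043 to 0.17). The increased member was *MET32* without *RRP4* replicate 2 (0.77). The replicate numbers did not pair the samples (correlations of the deviations of same-numbered libraries 0.024, 0.073 and -0.068, and not every library correlated best with its own number). A replicate block gave 8 decreased members in place of 7, adding *CYS3* (-0.59), and changed no other member's call. Depth limits *SUL1* most, with 5 to 13 counts per library.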
